A study of Mus musculus with 12 samples.

Results

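The 37 genes described here carry out and regulate the synthesis of sterols and fatty acids in pancreatic islets of mice. They were chosen from a list of genes of the sterol regulatory element-binding protein (SREBP) pathway, each represented by the brightest of its probes, and they stand among 17305 genes that the arrays name. The list holds 17 enzymes of the sterol branch, 10 enzymes of the fatty acid branch, 7 regulators and 3 genes of sterol transport. All 37 had a probe, and every one of these probes was well above background on all 12 arrays.

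RNA of isolated islets was measured on 1-colour Agilent arrays, with 3 arrays for each of 4 genotypes. Per the study's methods the islets were kept overnight in culture medium with serum before RNA was taken, so the signals are those of cultured islets. WT mice were wild type; PPARg2KO mice lacked the PPARg2 isoform of the nuclear receptor PPARg, a regulator of fat cell formation and lipid storage; ob/ob mice (OB in the labels) lacked leptin, the satiety hormone of adipose tissue, and were obese; POKO mice (DKO in the labels) lacked both. All were on a C57BL/6 x Sv129 background and on chow, and the labels give an age of 4 weeks, while the text of the study gives another age for the animals used on the arrays. Neither defect is restricted to islets, so that the whole body of the mutant animals lacked leptin, the PPARg2 isoform or both. By the methods of the study each array held a pool of islet RNA from several mice, so that the p values measure the spread between pools and not between animals, and in a bulk sample a lower number of cells of a type cannot be told from less RNA per cell.

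The probe of Pparg was lower in the genotypes that lack PPARg2, with log2 signals of 8.85 to 8.98 in WT, 8.54 to 9.77 in ob/ob, 6.60 to 7.44 in PPARg2KO and 6.41 to 7.14 in POKO. Each of the 3 slides held 1 array of every genotype, but the position on the slide was the same for all arrays of a genotype, so that position and genotype cannot be told apart. The median processed signal before normalization was 20.9 to 27.0 in WT, 23.0 to 30.4 in PPARg2KO, 30.7 to 40.6 in ob/ob and 31.6 to 33.6 in POKO. Of the islet markers 7 of 8 beta cell, 5 of 5 alpha cell and 3 of 3 delta and PP cell genes were above background on all arrays, and so were 12 of 12 acinar cell genes. The log2 of the summed beta cell signal was 19.27 to 19.74 in WT and 19.75 to 19.84 in ob/ob. In PPARg2KO and POKO it was 19.51 to 19.69 and 19.63 to 19.68. Ins1 and Ins2 were the brightest beta cell markers on every array and weighed most in this sum. Ins2 had almost the same signal on all 12 arrays. Of the 8 beta cell markers 6 had higher means in ob/ob than in WT and 2 lower. The lower ones were Slc2a2 (7.21 in ob/ob, 7.81 in WT) and Mafa (5.06 in ob/ob, 6.19 in WT). The alpha cell sum was 17.38 to 17.67 in WT and 17.72 to 17.81 in ob/ob, and the delta and PP cell sums overlapped. The acinar sum was higher, at 21.52 to 21.61 in WT and 21.33 to 21.58 in ob/ob. Of the acinar genes 0 were called in ob/ob vs WT, which does not show an equal share of acinar cells. Markers of other cells moved with the genotype. The log2 of the summed signal of 5 duct cell markers was 15.91 to 16.26 in WT, 15.69 to 16.09 in PPARg2KO, 14.38 to 15.21 in ob/ob and 15.02 to 15.47 in POKO, and that of 6 T cell markers was 8.69 to 8.74, 7.99 to 10.4, 9.99 to 11.4 and 9.21 to 10.9 in the same order. In ob/ob vs WT 3 of 5 duct cell markers were called lower, and 1 of 8 beta cell, 5 of 6 T cell, 3 of 5 B cell, 1 of 6 macrophage and 2 of 6 endothelial cell markers higher. The other T cell marker, Cd3e, was lower on every ob/ob array (6.09 to 7.46) than on any WT array (8.08 to 8.33), but was not called. The duct cell marker Krt7 had a higher mean in ob/ob (12.31) than in WT (11.76). Krt19, the brightest duct cell marker on every array, weighed most in the duct cell sum, with means of 15.96 in WT and 14.39 in ob/ob. Of the 8 fat cell markers Adipoq was above background on 0 arrays and Plin1 on 1 array, of WT, while Fabp4 and Lpl, which other cells also express, were above it on all 12. Cidec was above it on 1 WT, 1 PPARg2KO, 3 ob/ob and 3 POKO arrays, with means of 3.91, 3.53, 4.43 and 4.05. Lep, Retn and Cfd were above it on 0 or 1 array of each genotype. Fabp4 was called higher in ob/ob vs WT, at 1.31 (SE 0.35, adjusted p = 0.0449), and Lpl stood at -0.42 (adjusted p = 0.188). The log2 of the summed signal of the 8 was 10.91 to 11.82 in WT, 11.29 to 11.69 in PPARg2KO, 11.92 to 12.11 in ob/ob and 11.26 to 12.05 in POKO. The part of these cell types in the results below was not tested.

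Cells make cholesterol from acetyl-CoA through mevalonate, squalene and lanosterol, and fatty acids from acetyl-CoA through malonyl-CoA. When membranes are poor in cholesterol, the escort protein Scap carries the SREBPs to the Golgi, where they are cut and released to the nucleus. SREBP2, the product of Srebf2, acts mainly on genes of sterol synthesis and SREBP1c, a product of Srebf1, mainly on genes of fatty acid synthesis, while Insig1 and Insig2 hold Scap back in the endoplasmic reticulum when sterols abound. Oxysterols that accumulate with cholesterol activate the liver X receptors (Nr1h3 and Nr1h2), which raise the cholesterol exporters Abca1 and Abcg1. In beta cells the cholesterol content of membranes is known to bear on insulin secretion.

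SREBPs bind the sterol regulatory element, often beside a CCAAT box bound by the factor NF-Y. RefSeq promoter windows, 250 bases before to 50 bases after the start of transcription, were at hand for 29 of the 37 genes (39 windows, GRCm38.p6). Both strands were searched for TCACNCCAC (the element), its shorter core CACNCCAC (which the element contains), CCAAT, the E-box CACGTG, its longer palindrome TCACGTGA (which contains the E-box) and the GC box GGGCGG. The element was found in 1 of the 39 windows, that of Hmgcs1, and in 1.24% of all 32851 windows. Its core was found in 3 of the 39, of Acat2, Hmgcs1 and Insig1, against 6.24% of all windows. CCAAT was found in 22 of the 39 against 37.4% of all, the E-box in 7 against 7.15%, the palindrome in 0 against 0.974% and the GC box in 27 against 35.7%. These are matches of letters only, and a window without a match says nothing about the factor.

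Windows of 4 genes are shown, with the core or the full element and the CCAAT boxes, on either strand, in capitals: Hmgcs1, the only gene with the full element; Insig1, with the core and 1 CCAAT box; Cyp51, a sterol gene that was lower in ob/ob and holds a CCAAT box without the element; and Abca1, which was higher in ob/ob and holds neither. They lie at chr13:119690101-119690400 (plus strand), chr5:28071162-28071461 (plus), chr5:4104648-4104947 (minus) and chr4:53159846-53160145 (minus).
Hmgcs1: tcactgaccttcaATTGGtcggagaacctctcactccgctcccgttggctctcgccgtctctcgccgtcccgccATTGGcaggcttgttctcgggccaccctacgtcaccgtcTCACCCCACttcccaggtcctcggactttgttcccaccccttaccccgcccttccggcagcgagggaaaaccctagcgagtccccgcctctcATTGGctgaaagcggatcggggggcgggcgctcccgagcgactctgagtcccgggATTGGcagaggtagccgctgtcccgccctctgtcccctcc
Insig1: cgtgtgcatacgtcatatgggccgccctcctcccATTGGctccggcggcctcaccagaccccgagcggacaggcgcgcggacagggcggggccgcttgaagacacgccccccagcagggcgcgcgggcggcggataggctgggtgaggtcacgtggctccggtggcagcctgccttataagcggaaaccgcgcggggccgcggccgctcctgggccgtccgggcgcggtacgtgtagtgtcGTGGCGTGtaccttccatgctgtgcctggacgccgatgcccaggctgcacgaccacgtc
Cyp51: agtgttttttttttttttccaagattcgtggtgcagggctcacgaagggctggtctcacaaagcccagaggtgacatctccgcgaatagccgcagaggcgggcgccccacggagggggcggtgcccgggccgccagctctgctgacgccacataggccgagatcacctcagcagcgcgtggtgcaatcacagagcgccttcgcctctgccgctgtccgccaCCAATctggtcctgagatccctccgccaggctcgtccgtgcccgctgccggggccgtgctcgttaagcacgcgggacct
Abca1: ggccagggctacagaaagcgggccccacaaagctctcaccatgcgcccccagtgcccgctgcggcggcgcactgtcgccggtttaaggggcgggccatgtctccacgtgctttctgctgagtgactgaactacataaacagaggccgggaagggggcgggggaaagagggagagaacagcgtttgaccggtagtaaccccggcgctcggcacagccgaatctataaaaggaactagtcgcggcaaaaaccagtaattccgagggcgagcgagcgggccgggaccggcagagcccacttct
In Hmgcs1 the element begins 137 bases before the start, with CCAAT boxes 237, 176 and 45 bases before and 10 bases after it. Insig1 holds its core 9 bases before the start and its CCAAT box 216 bases before it, and the CCAAT box of Cyp51 lies 29 bases before its start.

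The first question was how the pathway differed in leptin-deficient obesity. In ob/ob islets 19 of the 37 genes differed from WT at an adjusted p of at most 0.05, 17 of them lower and 2 higher. Over all 41174 probes 6.14% were called lower and 4.92% higher, and over the 20518 probes well above background on every array the shares were 9.1% and 6.2%. The median log2 fold change was -0.71 over the 37 genes and -0.08 over all probes. On the 3 ob/ob arrays 23 of the 37 genes were below all 3 WT arrays, against 29.9% of all probes, and 3 were above them, against 11.3%. Among the 20518 probes well above background on every array 5080 were below and 2699 above. The 17 genes that fell were 11 enzymes of sterol synthesis, the fatty acid enzymes Fasn, Scd2 and Fads2, the regulators Srebf2 and Scap and the sterol carrier Stard4, and the 2 that rose were the exporters Abca1 and Abcg1.

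**Figure D1:**
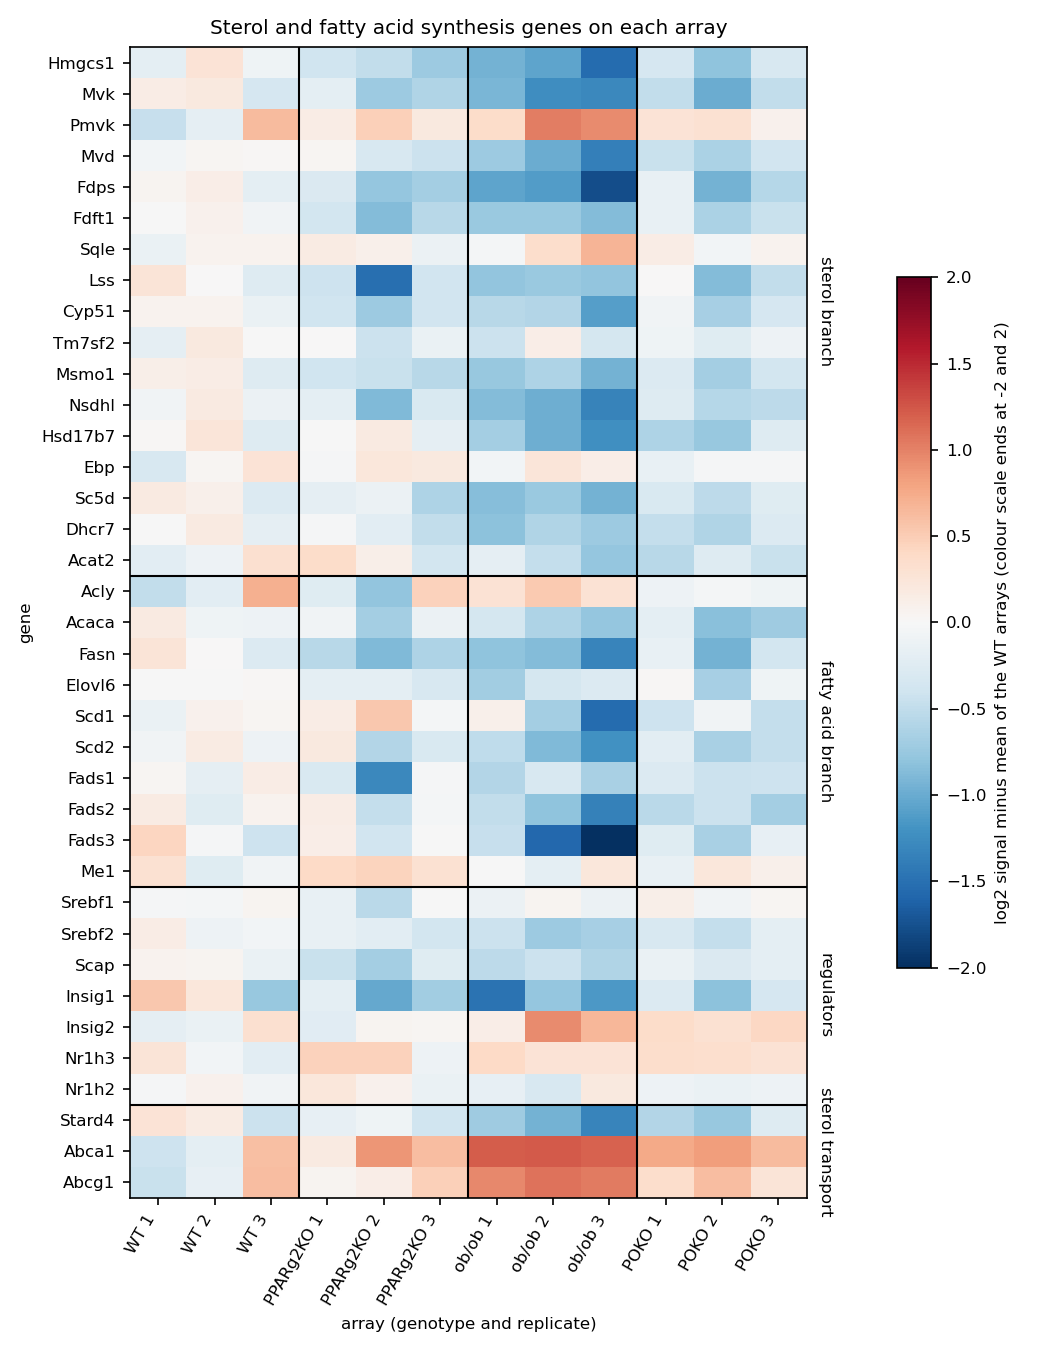
Log2 signal of the 37 genes (rows, in the 4 groups named at the right) on the 12 arrays (columns, by genotype and replicate), as the difference from the mean of the 3 WT arrays of the gene, with blue for lower and red for higher. Most rows of the sterol and fatty acid branches are bluest on the ob/ob arrays, and Abca1 and Abcg1 are reddest there.

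Signals are given below in the order of replicates 1 to 3 of each genotype, which are also slides 1 to 3. Of the first steps of the sterol branch, Hmgcs1, which makes HMG-CoA, gave log2 signals of 11.81, 12.27 and 11.92 in WT, 11.60, 11.51 and 11.28 in PPARg2KO, 11.05, 10.95 and 10.47 in ob/ob and 11.66, 11.19 and 11.68 in POKO. It was 2.26-fold lower (log2 fold change -1.18, SE 0.20, adjusted p = 0.0198) in ob/ob than in WT. Mvk phosphorylates mevalonate, and its signals were 8.60, 8.66 and 8.12 in WT, 8.26, 7.74 and 7.86 in PPARg2KO, 7.54, 7.22 and 7.17 in ob/ob and 7.98, 7.46 and 7.98 in POKO. Mvd, which makes isopentenyl diphosphate, gave 9.42, 9.52 and 9.50 in WT, 9.51, 9.16 and 9.04 in PPARg2KO, 8.75, 8.49 and 8.11 in ob/ob and 9.03, 8.84 and 9.10 in POKO. The ob/ob arrays were below all arrays of WT and PPARg2KO for these 3 genes, and below all POKO arrays for Hmgcs1 and Mvd. The log2 difference from WT was -1.15 (SE 0.21, adjusted p = 0.0223) for Mvk and -1.03 (SE 0.17, adjusted p = 0.0185) for Mvd. Pmvk, the kinase between Mvk and Mvd, did not go with them, at 11.15, 11.43 and 12.25 in WT, 11.75, 12.09 and 11.81 in PPARg2KO, 11.98, 12.63 and 12.56 in ob/ob and 11.88, 11.91 and 11.69 in POKO. Its difference of 0.78 (SE 0.27, adjusted p = 0.0896) did not pass the test, and its other probe, at 0.92 (adjusted p = 0.0528), also lay on the higher side.

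Farnesyl diphosphate, from which both sterols and the lipid anchors of proteins are made, is the product of Fdps. Its signals were 12.18, 12.27 and 11.94 in WT, 11.84, 11.35 and 11.46 in PPARg2KO, 11.07, 11.01 and 10.35 in ob/ob and 11.98, 11.19 and 11.56 in POKO, and the ob/ob arrays lay below all others. With -1.32 (SE 0.25, adjusted p = 0.0239) it had the lowest log2 fold change of the sterol branch, about 2.49 times lower on the linear scale. Fdft1, squalene synthase, gave 10.87, 10.96 and 10.81 in WT, 10.52, 10.01 and 10.33 in PPARg2KO, 10.13, 10.14 and 10.02 in ob/ob and 10.74, 10.24 and 10.44 in POKO, lower in ob/ob, at -0.79 (SE 0.15, adjusted p = 0.0245). Here a PPARg2KO array, at 10.01, was as low as the ob/ob arrays. Sqle oxidizes squalene and is one of the steps at which the sterol pathway is controlled. It gave 10.58, 10.77 and 10.77 in WT, 10.87, 10.81 and 10.58 in PPARg2KO, 10.66, 11.05 and 11.39 in ob/ob and 10.86, 10.65 and 10.77 in POKO, and its difference of 0.33 (SE 0.17, adjusted p = 0.224) did not pass the test, with a 95% confidence interval of -0.05 to 0.71.

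The later steps turn lanosterol into cholesterol. Cyp51, the lanosterol demethylase, gave 8.46, 8.46 and 8.27 in WT, 8.003, 7.67 and 8.01 in PPARg2KO, 7.85, 7.82 and 7.30 in ob/ob and 8.33, 7.74 and 8.07 in POKO. Msmo1, which removes the C4 methyl groups, gave 12.22, 12.25 and 11.86 in WT, 11.71, 11.66 and 11.56 in PPARg2KO, 11.35, 11.49 and 11.15 in ob/ob and 11.84, 11.42 and 11.74 in POKO. Nsdhl, which acts in the same complex, gave 7.90, 8.14 and 7.85 in WT, 7.77, 7.08 and 7.66 in PPARg2KO, 7.09, 6.98 and 6.63 in ob/ob and 7.70, 7.40 and 7.43 in POKO. Hsd17b7 reduces the keto group that Nsdhl leaves. It gave 8.56, 8.77 and 8.27 in WT, 8.53, 8.70 and 8.35 in PPARg2KO, 7.86, 7.55 and 7.31 in ob/ob and 7.91, 7.77 and 8.28 in POKO. All 4 were lower on each of the 3 ob/ob arrays than on any WT array, with log2 differences of -0.74 (SE 0.19, adjusted p = 0.0408) for Cyp51, -0.77 (SE 0.15, adjusted p = 0.0242) for Msmo1, -1.06 (SE 0.20, adjusted p = 0.0227) for Nsdhl and -0.96 (SE 0.19, adjusted p = 0.0266) for Hsd17b7. The PPARg2KO arrays of Hsd17b7 lay within the range of its WT arrays. The desaturase Sc5d gave 10.58, 10.49 and 10.12 in WT, 10.22, 10.28 and 9.77 in PPARg2KO, 9.54, 9.66 and 9.46 in ob/ob and 10.096, 9.88 and 10.15 in POKO. Dhcr7, the last reductase, gave 10.60, 10.78 and 10.43 in WT, 10.59, 10.40 and 10.12 in PPARg2KO, 9.79, 10.00 and 9.87 in ob/ob and 10.13, 10.00 and 10.34 in POKO. Both were below WT on all ob/ob arrays, at -0.84 (SE 0.16, adjusted p = 0.025) for Sc5d and -0.72 (SE 0.15, adjusted p = 0.027) for Dhcr7.

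The other 6 sterol enzymes were not called in ob/ob vs WT. Besides Pmvk and Sqle these were Lss, the lanosterol synthase, at a log2 fold change of -0.77 (95% CI -1.48 to -0.06), Acat2, the thiolase of the first step, at -0.48 (-0.98 to 0.03), Tm7sf2, a sterol reductase, at -0.21 (-0.60 to 0.18), and Ebp, a sterol isomerase, at 0.11 (-0.23 to 0.45). The intervals of Tm7sf2 and Ebp leave out changes as large as that of Fdps.

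Of the fatty acid branch 3 of 10 genes fell. Fasn, the synthase itself, gave 13.43, 13.18 and 12.90 in WT, 12.61, 12.28 and 12.55 in PPARg2KO, 12.37, 12.31 and 11.85 in ob/ob and 13.02, 12.22 and 12.80 in POKO, and was lower in ob/ob, at -0.99 (SE 0.23, adjusted p = 0.0337). The desaturase Scd2 gave 11.68, 11.90 and 11.64 in WT, 11.93, 11.16 and 11.44 in PPARg2KO, 11.24, 10.86 and 10.53 in ob/ob and 11.53, 11.09 and 11.26 in POKO. Fads2, which starts the synthesis of polyunsaturated fatty acids, gave 9.37, 8.96 and 9.28 in WT, 9.35, 8.73 and 9.17 in PPARg2KO, 8.71, 8.40 and 7.86 in ob/ob and 8.65, 8.77 and 8.52 in POKO. Their log2 differences were -0.86 (SE 0.23, adjusted p = 0.0449) for Scd2 and -0.88 (SE 0.23, adjusted p = 0.043) for Fads2, and for both the third ob/ob array was the lowest of the 12. Fads3 had the lowest log2 fold change of all 37 genes but also the widest spread, with 11.70, 11.25 and 10.85 in WT, 11.39, 10.88 and 11.25 in PPARg2KO, 10.81, 9.69 and 8.55 in ob/ob and 11.02, 10.61 and 11.10 in POKO. At -1.58 (SE 0.48, adjusted p = 0.0627) it missed the threshold, and its other probe, at -1.89 (adjusted p = 0.036), passed it.

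Acaca makes malonyl-CoA, and its signals were 6.08, 5.82 and 5.80 in WT, 5.82, 5.23 and 5.78 in PPARg2KO, 5.55, 5.29 and 5.13 in ob/ob and 5.71, 5.07 and 5.19 in POKO. All ob/ob arrays were below WT, with -0.58 (SE 0.21, adjusted p = 0.105). A dimmer probe of Acaca that was also above background on every array gave -1.42 (adjusted p = 0.034). Scd1, the desaturase that responds to both SREBP1c and liver X receptors, gave 7.92, 8.14 and 8.08 in WT, 8.19, 8.58 and 8.02 in PPARg2KO, 8.15, 7.37 and 6.51 in ob/ob and 7.63, 7.98 and 7.57 in POKO. The ob/ob arrays ranged from the level of WT to the lowest value of all, and the difference of -0.71 (SE 0.35, adjusted p = 0.202) did not pass. Acly, which supplies acetyl-CoA from citrate, gave 10.69, 10.96 and 11.88 in WT, 10.93, 10.38 and 11.63 in PPARg2KO, 11.46, 11.70 and 11.46 in ob/ob and 11.08, 11.14 and 11.09 in POKO. Me1, which supplies NADPH, gave 8.64, 8.08 and 8.27 in WT, 8.73, 8.78 and 8.64 in PPARg2KO, 8.33, 8.13 and 8.57 in ob/ob and 8.18, 8.55 and 8.44 in POKO. Neither passed the test, at 0.37 (SE 0.34, adjusted p = 0.492) for Acly and 0.01 (SE 0.17, adjusted p = 0.976) for Me1. Elovl6 (-0.44, 95% CI -0.83 to -0.05) and Fads1 (-0.52, -1.13 to 0.09) were not called either.

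**Figure D2:**
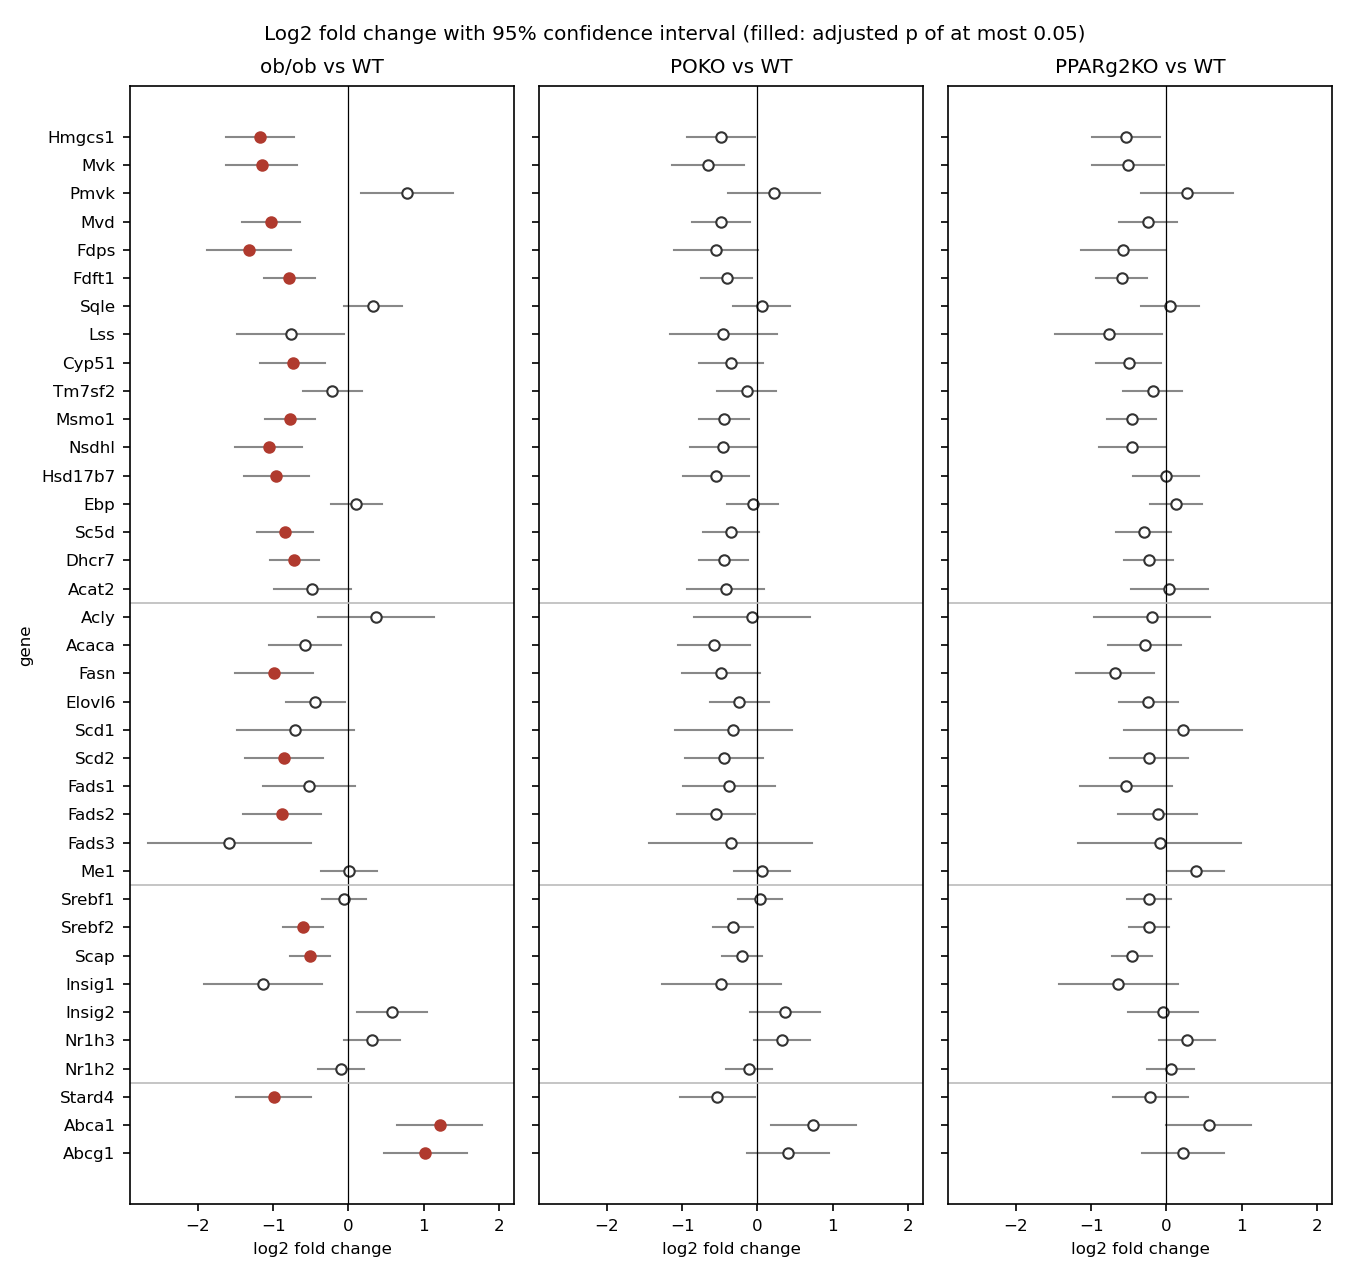
Log2 fold change of each gene against WT (points) with its 95% confidence interval (lines) for ob/ob, POKO and PPARg2KO, which share the 3 WT arrays; filled points have an adjusted p of at most 0.05 and grey lines part the sterol, fatty acid, regulator and transport genes. Filled points occur in the ob/ob panel alone, 17 left and 2 right of 0.

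Among the regulators Srebf2 was called and Srebf1 was not. Srebf2 gave 8.37, 8.12 and 8.17 in WT, 8.08, 8.02 and 7.86 in PPARg2KO, 7.79, 7.50 and 7.55 in ob/ob and 7.90, 7.74 and 8.03 in POKO, with the ob/ob arrays below all WT and PPARg2KO arrays, and fell by 0.61 on the log2 scale (SE 0.12, adjusted p = 0.0249). Srebf1 gave 12.98, 12.97 and 13.06 in WT, 12.85, 12.47 and 13.00 in PPARg2KO, 12.88, 13.06 and 12.89 in ob/ob and 13.13, 12.94 and 13.04 in POKO. Its difference was -0.06 (SE 0.13, adjusted p = 0.779), with a 95% confidence interval of -0.35 to 0.23, and on this probe the isoforms SREBP1a and SREBP1c were not told apart. Scap gave 13.66, 13.64 and 13.46 in WT, 13.15, 12.90 and 13.35 in PPARg2KO, 13.07, 13.16 and 12.99 in ob/ob and 13.46, 13.30 and 13.40 in POKO, with -0.51 (SE 0.12, adjusted p = 0.0325); the PPARg2KO arrays reached as low as those of ob/ob.

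Insig1, itself a target of SREBP, gave 8.94, 8.63 and 7.65 in WT, 8.22, 7.39 and 7.71 in PPARg2KO, 6.93, 7.63 and 7.26 in ob/ob and 8.13, 7.59 and 8.07 in POKO. All ob/ob arrays were below all WT arrays, but the WT arrays spread over more than 1 log2 unit and -1.13 (SE 0.35, adjusted p = 0.0653) missed the threshold. The other Insig1 probe passed it at -1.48 (adjusted p = 0.0191). Insig2, which is not under the same control, stood at 0.58 (SE 0.21, adjusted p = 0.0928), the opposite sign, and its other probe at 0.39 (adjusted p = 0.18). The liver X receptor gene Nr1h3 gave 9.13, 8.82 and 8.65 in WT, 9.33, 9.33 and 8.77 in PPARg2KO, 9.27, 9.14 and 9.14 in ob/ob and 9.23, 9.21 and 9.15 in POKO, with 0.31 (SE 0.16, adjusted p = 0.231), and Nr1h2 stood at -0.10 (adjusted p = 0.65).

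The 3 genes of sterol transport were all called. Stard4, which carries cholesterol between membranes and is a target of SREBP2, gave 8.41, 8.30 and 7.72 in WT, 7.98, 8.05 and 7.75 in PPARg2KO, 7.43, 7.20 and 6.82 in ob/ob and 7.56, 7.39 and 7.88 in POKO and was lower, at -0.99 (SE 0.22, adjusted p = 0.0311). Abca1, which loads cholesterol onto apolipoproteins, gave 8.07, 8.28 and 9.08 in WT, 8.66, 9.36 and 9.09 in PPARg2KO, 9.69, 9.71 and 9.66 in ob/ob and 9.23, 9.31 and 9.11 in POKO. Abcg1, which passes it to larger particles, gave 8.81, 9.09 and 9.87 in WT, 9.30, 9.38 and 9.73 in PPARg2KO, 10.22, 10.34 and 10.29 in ob/ob and 9.60, 9.87 and 9.51 in POKO. The 3 ob/ob arrays lay within 0.05 of each other for Abca1 and above all other arrays for both genes. The log2 fold changes were 1.21 (SE 0.25, adjusted p = 0.0275) for Abca1 and 1.02 (SE 0.24, adjusted p = 0.0348) for Abcg1. For both the third WT array stood above the other WT arrays, and within slides the Abca1 difference was 1.62, 1.43 and 0.58. Myeloid cells also express both exporters. Of 6 macrophage markers 5 had higher means in ob/ob than in WT, with a median log2 fold change of 0.98 over the 6. C1qa was called, at 1.34 (SE 0.31, adjusted p = 0.0323), and for C1qa, C1qb, Csf1r and Lyz2 every ob/ob array lay above every WT array. Cd14 stood at -0.70 (adjusted p = 0.333). The log2 of the summed signal of the 6 was 12.2 to 12.5 in WT, 12.4 to 12.7 in PPARg2KO, 11.6 to 13.0 in ob/ob and 12.5 to 13.0 in POKO. Cd14 was the brightest of the 6 on every array and weighed most in this sum. The part of these cells in the higher Abca1 and Abcg1 signals was not tested.

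**Figure D3:**
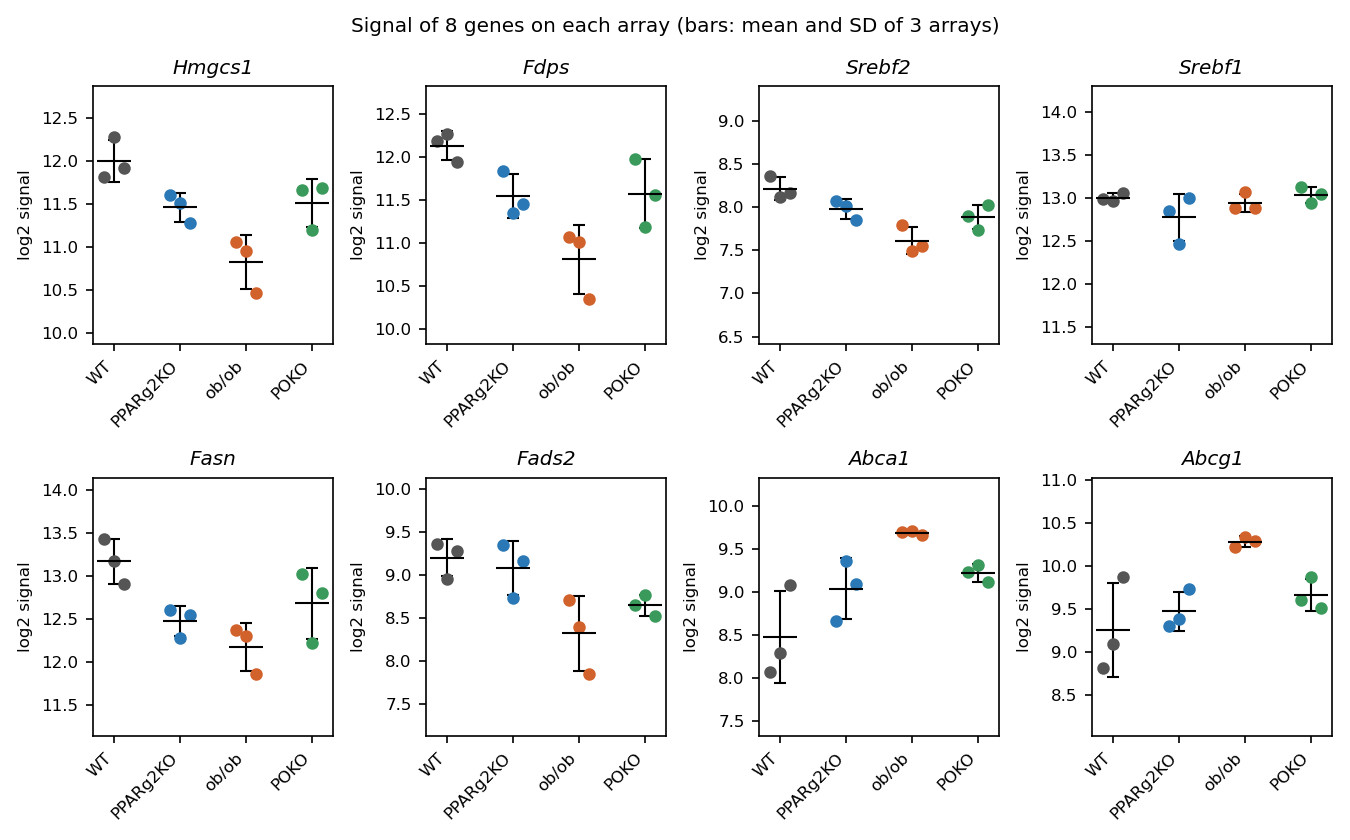
Log2 signal of 8 genes on the 12 arrays (points), with the mean and SD of the 3 arrays of each genotype; every panel spans 3 log2 units. Hmgcs1, Fdps, Srebf2, Fasn and Fads2 are lowest in ob/ob, Abca1 and Abcg1 highest, and Srebf1 is level.

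Further probes that were above background on every array kept the sign. In all, 16 genes had 21 further probes, 17 of them above background on every array. All 17 had the sign of the brightest probe in ob/ob vs WT and 13 were called. The dimmer ones were above background on 2 arrays each. Among them a probe of Acaca had the opposite sign, at 1.27 (adjusted p = 0.127), and the others kept the sign. With the number of the slide as a block the count of genes called in ob/ob vs WT was 20, and 24 of the 37 genes were lower in ob/ob than in WT on each of the 3 slides, against 40.2% of all probes, and 6 higher, against 18.2%. The count of 19 rests on single arrays, however: without the first or the second WT array it was 1 (Hmgcs1) and 0, and without the second or the third ob/ob array 0 and 1 (Mvd). In a fit of the 6 arrays of ob/ob and WT only it was 1 (Fdft1). In those 5 fits the count over all probes also fell, from 4555 to between 173 and 564, and 22 to 25 of the 37 genes kept an unadjusted p of at most 0.05.

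The sterol and the fatty acid branch were compared next. In ob/ob vs WT the median log2 fold change was -0.77 in the sterol branch, with 11 of 17 genes called lower, and -0.64 in the fatty acid branch, with 3 of 10. The difference of the medians, -0.13, was smaller than its spread over the 3 slides (SD 0.19). As a mean over the genes relative to WT, the sterol branch stood at -0.64 ± 0.13 in ob/ob (SD, n = 3), -0.35 ± 0.16 in POKO, -0.29 ± 0.14 in PPARg2KO and 0 ± 0.084 in WT. The fatty acid branch stood at -0.62 ± 0.29, -0.34 ± 0.11, -0.18 ± 0.22 and 0 ± 0.071 in the same order. The lower share of calls in the fatty acid branch went with a wider spread of the ob/ob arrays, from -0.93 to -0.35, against -0.78 to -0.54 in the sterol branch. With each array scaled to its 75th percentile the difference of the medians in ob/ob vs WT was -0.34, and without the first ob/ob array it was 0.063, so that these data do not order the branches.

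**Figure D4:**
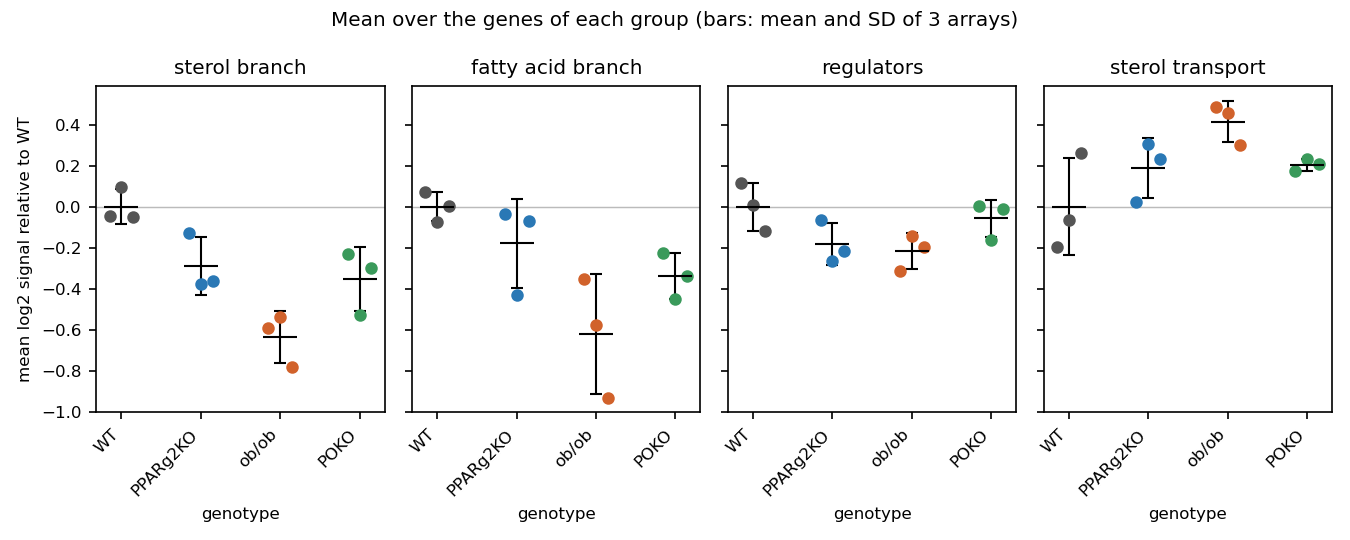
Mean log2 signal over the genes of each group relative to WT (17 sterol, 10 fatty acid, 7 regulator and 3 transport genes) on each array (points), with the mean and SD of the 3 arrays. Both branches are lowest in ob/ob, at means of -0.64 and -0.62, and PPARg2KO and POKO lie between WT and ob/ob.

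Loss of PPARg2 alone was examined in PPARg2KO vs WT. At the adjusted threshold 0 of the 37 genes were called, as was 0% of all probes. At an unadjusted p of at most 0.05 there were 11 of 37, against 9.37% of all probes: Hmgcs1, Mvk, Fdps, Fdft1, Lss, Cyp51, Msmo1 and Nsdhl of the sterol branch, Fasn and Scap with lower values, and Me1 with a higher one. Among the 20518 probes well above background on every array 2319 had such a p. Fdft1 had a log2 fold change of -0.59 (SE 0.15, adjusted p = 0.418), Fasn of -0.69 (SE 0.23, adjusted p = 0.483) and Scap of -0.45 (SE 0.12, adjusted p = 0.425), and each was lower in PPARg2KO than in WT on all 3 slides. The second PPARg2KO array had the lowest signal of the 3 for Mvk, Fdps, Fdft1, Lss, Cyp51, Nsdhl, Fasn and Scap, and without it the unadjusted count was 4. It was 4 and 6 without the second or the first WT array, and 7 without the second ob/ob array or the third POKO array, which enter only through the pooled spread.

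In POKO vs WT also 0 of the 37 genes were called, against 0.194% of all probes, and 13 had an unadjusted p of at most 0.05, against 16.4% of all probes. The 12 with lower values were Hmgcs1, Mvk, Mvd, Fdft1, Msmo1, Nsdhl, Hsd17b7, Dhcr7, Acaca, Fads2, Srebf2 and Stard4, and the 1 with a higher value was Abca1. Mvk stood at -0.66 (SE 0.21, adjusted p = 0.174) and Abca1 at 0.74 (SE 0.25, adjusted p = 0.191). The second POKO array was the lowest of the POKO arrays for Hmgcs1, Mvk, Mvd, Fdps and Msmo1, and without it 2 of the 37 genes kept an unadjusted p of at most 0.05. Without the first or the second WT array 7 and 6 did. With weights for single arrays 5 were called (Mvk, Mvd, Msmo1, Dhcr7 and Abca1), and without the third WT array 1 (Abca1).

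Whether the obese genotypes differed with and without PPARg2 was asked in POKO vs ob/ob. Here 0 of the 37 genes were called, against 0.00486% of all probes, and 12 had an unadjusted p of at most 0.05, against 9.29%. Among the 20518 probes well above background on every array 2927 had such a p. For 11 of the 12 the POKO value was the higher one: Hmgcs1, Mvk, Mvd, Fdps, Fdft1, Msmo1, Nsdhl, Sc5d, Fads3, Srebf2 and Scap. Abcg1 was the gene with the lower value. The count of 12 was 7 and 4 without the second or the third ob/ob array and 4 and 5 without the first or the third POKO array. Fdps differed by 0.76 (SE 0.25, 95% CI 0.21 to 1.32, adjusted p = 0.531), Hmgcs1 by 0.69 (SE 0.20, 0.23 to 1.14, adjusted p = 0.531) and Abcg1 by -0.62 (SE 0.24, -1.16 to -0.07, adjusted p = 0.531). For Hmgcs1, Mvd, Fdps, Fdft1, Nsdhl, Sc5d and Scap every POKO array lay above every ob/ob array, and for Pmvk, Acly, Abca1 and Abcg1 every POKO array lay below. These are 7 and 4 of the 37 genes, against 8.78% and 8.93% of all probes. Among the 20518 probes well above background on every array there were 2928 and 2550, a higher share than over all probes. The median over the 37 genes was 0.31, beside 0.01 over all probes, and it was 0.38 in the sterol and 0.26 in the fatty acid branch. No cell marker was called in POKO vs ob/ob (0 in each list), but the values of several lists lay to one side. The means of 8 of 8 beta cell markers were lower in POKO than in ob/ob (median -0.77, 5 without overlap), as were those of 4 of 5 alpha cell (median -0.27), 3 of 3 delta and PP cell (median -0.67) and 6 of 6 endothelial cell markers (median -0.22). Those of 6 of 6 fibroblast and stellate cell (median 0.80), 5 of 6 macrophage (median 0.54) and 4 of 5 duct cell markers (median 0.50) were higher. The part of these cells in the shift was not tested. In order of their means ob/ob was the lowest genotype for 14 of 17 sterol genes and WT the highest for 13. POKO lay between them for 16 and PPARg2KO for 15. For the 13 genes with ob/ob lowest and WT highest both places follow from that order. Such orders were not counted over all probes.

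The effect of PPARg2 loss in obese mice minus its effect in lean mice is the interaction. It was called for 0 of the 37 genes and 0% of all probes, and 17 of the 37 had an unadjusted p of at most 0.05, against 13.9% of all probes. Among the 20518 probes well above background on every array 4325 had such a p. Of these 17, Hmgcs1, Mvk, Mvd, Fdps, Fdft1, Lss, Cyp51, Msmo1, Nsdhl, Sc5d, Dhcr7, Fasn, Srebf2, Scap and Insig1 had positive values, and Abca1 and Abcg1 negative ones. The values reached 1.35 for Fdps (SE 0.35, adjusted p = 0.258) and 1.23 for Hmgcs1 (SE 0.28, adjusted p = 0.248), and -1.03 for Abca1 (SE 0.35, adjusted p = 0.289). For these genes PPARg2 loss thus went with a lower value against WT and a higher one against ob/ob (the reverse for the exporters), a difference that did not pass the adjusted test. Without the third WT array Abca1 and Abcg1 passed it. The interaction uses the same WT and ob/ob arrays as ob/ob vs WT, so the 2 results are not independent. POKO and PPARg2KO differed by a median of 0.0067 over the 37 genes.

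Taking both obese against both lean genotypes, 11 of the 37 genes were called, 10 lower against 4.81% of all probes and 1 higher against 4.23%. Among the 20518 probes well above background on every array 1425 were called lower and 1041 higher. The 10 were Hmgcs1, Mvk, Mvd, Nsdhl, Hsd17b7, Sc5d, Dhcr7, Fads2, Srebf2 and Stard4, and the 1 was Abca1. Hsd17b7 had the lowest p at -0.75 (SE 0.14, adjusted p = 0.0217), and was lower in obese mice on all 3 slides. Without the second WT array, the first PPARg2KO array, the second ob/ob array or the first or second POKO array 0 were called, and with array weights 20. Leaving out the second PPARg2KO array gave 6, and the first WT, the third ob/ob or the third POKO array 2 each, Mvd and Hsd17b7. In PPARg2-null vs intact genotypes 0 of the 37 were called, against 0% of all probes, and 0 had an unadjusted p of at most 0.05, against 3.76% of all probes. In POKO vs PPARg2KO 0 were called (0.00971% of all probes), and 1, Hsd17b7 at -0.54 (SE 0.19, adjusted p = 0.365), had an unadjusted p of at most 0.05 (11.1% of all probes). Over the 37 genes POKO vs PPARg2KO had 19 higher and 18 lower values, with a median of 0.0067, beside -0.03 over all probes. In ob/ob vs WT 9 were higher and 28 lower, with a median of -0.71. Over the genes as a set the lower values of the obese genotypes thus lay in ob/ob vs WT.

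Of 16 other genes of sterol metabolism with a probe, 1 fell and 1 rose in ob/ob vs WT, which is near the shares over all probes (6.14% and 4.92%). Soat2, which esterifies cholesterol, gave 8.44, 7.88 and 6.86 in WT, 7.57, 6.83 and 7.08 in PPARg2KO, 6.58, 6.09 and 5.64 in ob/ob and 7.61, 7.21 and 7.28 in POKO, with -1.62 (SE 0.39, adjusted p = 0.0365). Npc2, which brings cholesterol out of lysosomes, gave 10.89, 11.02 and 11.51 in WT, 11.33, 11.62 and 11.49 in PPARg2KO, 11.997, 11.94 and 12.10 in ob/ob and 11.97, 11.85 and 11.58 in POKO, with 0.88 (SE 0.17, adjusted p = 0.0243). Of 26 other genes of fatty acid and glyceride metabolism 6 fell and 2 rose, against the same shares. Those that fell were Acacb, the mitochondrial acetyl-CoA carboxylase, at -1.65 (SE 0.32, adjusted p = 0.0246), the elongases Elovl1 (-0.62, adjusted p = 0.0254) and Elovl7 (-0.83, adjusted p = 0.0314), Gpam, which starts glyceride synthesis (-1.01, adjusted p = 0.0397), and the NADPH-forming Pgd (-0.81, adjusted p = 0.0497) and Me2 (-0.79, adjusted p = 0.0431).

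Against the lower signals of the synthesis enzymes, Dgat2, which makes triglyceride, rose, with 9.72, 10.095 and 9.86 in WT, 10.42, 10.15 and 10.11 in PPARg2KO, 11.16, 11.31 and 11.29 in ob/ob and 10.38, 10.87 and 10.46 in POKO and 1.36 (SE 0.15, adjusted p = 0.00962). Thrsp, a nuclear protein that goes with lipogenesis in liver and fat, rose more than any other gene of these lists. Its signals were 4.91, 5.04 and 5.57 in WT, 6.49, 7.02 and 6.61 in PPARg2KO, 7.54, 7.85 and 8.31 in ob/ob and 7.92, 7.75 and 7.75 in POKO. It was 6.62-fold higher (log2 fold change 2.73, SE 0.23, adjusted p = 0.00527) in ob/ob than in WT, and it was the 1 gene of the related lists called in POKO vs WT, at 2.63 (SE 0.23, adjusted p = 0.00703). The PPARg2KO arrays of Thrsp lay between those of WT and the obese genotypes, with no overlap on either side, and its difference from WT was not called in that comparison.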

How the data were processed

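Labelled RNA of islets from 12 samples was read on 1-colour arrays. Per the file headers, the deposited scanner output holds a processed signal, an intensity from which Agilent Feature Extraction (10.1.1.1 in the submitters' processing notes) had subtracted a background, with no normalization between arrays. The authors also deposited a table of normalized log2 values of the same arrays, used here as an alternative.

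Control spots (1639 per array) and 919 outlier spots over all arrays were left out, which left 43379 spots of 41174 probes and 119 probe values missing, none of them of the 37 genes. Signals were quantile-normalized over arrays and put on the log2 scale, with replicate spots averaged per probe. RefSeq accessions gave 25097 probes a symbol, and the probe with the highest mean signal stood for a gene. The fit was limma 3.58.1 (lmFit and eBayes, R 4.3.3) on all 12 arrays with genotype as the factor, and Benjamini-Hochberg adjustment covered every probe. A gene is called at an adjusted p of at most 0.05, two-sided, with no limit on the fold change. The fit was tested on simulated data. The number of arrays limits the precision.

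Alternatives were scaling to the 75th percentile, normexp background correction (offset 50), a filter on dim probes, a fit of the compared genotypes only, the replicate number as a block, array weights, the authors' values, a gene's probes averaged, a minimum log2 fold change of 1 in size, and each array left out. Values on every array are given for genes called in a comparison, for the 2 highest and 2 lowest of each branch in ob/ob vs WT and POKO vs ob/ob, and for Srebf1, Srebf2, Insig1, Fasn, Scd1, Scd2, Me1, Fads2, Nr1h3 and Abca1. The genes, the marker lists and the lists of related genes were chosen with earlier results of these data known.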

Additional observations from a re-analysis of the deposited data

How the results depend on the processing

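In ob/ob vs WT the count of genes called was 18 to 23 with the other scaling, background, filter, block, array weights, the authors' values or averaged probes, 7 with a minimum log2 fold change of 1 in size, 1 with the compared genotypes only, and 0 to 23 as single arrays were left out. In obese vs lean it was 0 with the fold limit, 20 with array weights and 0 to 16 as arrays were left out. Weights gave 5 in POKO vs WT, where leaving out arrays gave 0 to 1, and the interaction gave 0 to 2. No called gene changed sign in any alternative. The median of the sterol minus that of the fatty acid branch was -0.34 in ob/ob vs WT at the 75th percentile, where the median of all probes was -0.19, and ran from -0.25 to 0.063 without single arrays. It ran from -0.25 to -0.0091 in PPARg2KO vs WT and from 0.023 to 0.26 in POKO vs ob/ob. Same-numbered arrays deviated together weakly at most, with correlations of -0.13 to 0.18 over 18 pairs, 4 of them above 0.1. Pairs with different numbers gave -0.185 to 0.161 over 36 pairs, 3 of them above 0.1. In a fit with a replicate block 20 genes were called in ob/ob vs WT, 13 in obese vs lean and 0 in each other comparison. The cause of these differences was not tested, except that the compared genotypes alone and the fits without an array hold fewer arrays. The number of arrays, 3 a genotype, limits what could be detected, and the confidence intervals given show the precision.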
